A study of Mus musculus with 8 samples.

Results

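Tubulin genes were examined in immortalized mouse embryonic fibroblasts (MEFs), the connective-tissue cells of the embryo, from WT and Cav1KO littermates. The members were the rows of the deposited table named Tuba1a, Tuba1b, Tuba1c, Tubb2a, Tubb2b, Tubb3, Tubb4b, Tubb5, Tubb6 and Tubg1. All 10 were found among its 12528 genes, and all 10 passed the filter on low values. The cells had been on stiff (55 kPa) or soft (0.2 kPa) polyacrylamide gels coated with fibronectin for 24 h at low confluence, and poly(A) RNA was sequenced as single reads of 60 nt. Each genotype was sequenced on both gels, which gives 4 groups (WT stiff and WT soft, then Cav1KO stiff and Cav1KO soft) of 2 libraries. The sources used here do not say whether the libraries of a group came from separate cultures, so p-values measure only the spread between these libraries, which may be technical. They also do not say how many independent lines stood behind each genotype, so an effect of the Cav1 deletion and a difference between cell lines cannot be told apart.

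Alpha- and beta-tubulin pair into the dimers from which microtubules are built, and gamma-tubulin sits in the ring complex from which new microtubules grow. Mammals make several isotypes of alpha- and beta-tubulin from separate genes, with nearly the same body and a more variable carboxyl-terminal tail, on which many microtubule-binding proteins and modifying enzymes act. Fibroblasts mostly use the widely expressed isotypes, whereas Tubb3 is best known as a neuronal isotype and Tubb2b as one abundant in the developing brain. The level of free tubulin dimers feeds back on the stability of tubulin mRNAs that are being translated.

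The alpha-tubulin members lie together on chromosome 15 of GRCm38, Tuba1b at chr15:98931425-98934565 and Tuba1a at chr15:98949837-98953703 on the minus strand, and Tuba1c at chr15:99029891-99038110 on the plus strand. Tubb2a (chr13:34074274-34078007) and Tubb2b (chr13:34126748-34130466) are neighbours on the minus strand of chromosome 13 with 48740 bases between them. The coding sequences of Tuba1a and Tuba1b are identical at 98.3% of aligned positions and those of Tubb2a and Tubb2b at 96.5%, whereas the other pairs of beta-tubulin members share from 80.2% to 86.0%. The last 60 coding bases before the stop codon, which encode the tail, are shown for the Tubb2 pair because they show how few bases separate the copies, with the bases that differ between them in capitals. They lie in the last coding exon, at chr13:34074471-34074530 and chr13:34127474-34127533, both on the minus strand.
Tubb2a: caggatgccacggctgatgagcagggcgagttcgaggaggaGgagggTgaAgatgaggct
Tubb2b: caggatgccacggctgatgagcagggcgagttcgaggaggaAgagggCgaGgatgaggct
The tails differ at 3 of 60 bases. Each differing base is the last of its codon and leaves the encoded residue unchanged, so both stretches encode the same residues.

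Reads that match more than 1 gene limit what can be said of single copies. Of the 60-nt windows in the annotated transcripts, taken on both strands, 81.2% of Tuba1b, 73.7% of Tuba1a and 59.1% of Tuba1c also occur in another gene. Tubb2a shared 46.7% of its windows and Tubb2b 36.2%, mostly with each other. Tubb4b shared 49.3%, all with pseudogenes that are not listed in the table, and Tubg1 shared 10.3% with Tubg2. Tubb3, Tubb5 and Tubb6 shared 0 windows. The values of the alpha-tubulin members and of the Tubb2 pair are therefore uncertain as to which copy each read came from, and sums over the copies are given beside them.

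The 250 bases before the RefSeq start site were available for 7 of the 10 members (GRCm38.p6), and 4 are shown, those of Tubb2a and Tubb3 for their differences between genotypes and those of Tuba1b and Tubb4b for their rise with stiffness. Capitals mark the CCAAT box (searched as CCAAT, which reads as ATTGG on the other strand), the TATA box (searched as TATAAA or, from the other strand, TTTATA) and the GC box (searched as GGGCGG or, from the other strand, CCGCCC). The windows are chr13:34078009-34078258 on the minus strand for Tubb2a, chr8:123411303-123411552 on the plus strand for Tubb3, chr2:25224703-25224952 on the minus strand for Tubb4b and chr15:98934391-98934640 on the minus strand for Tuba1b.
Tubb2a: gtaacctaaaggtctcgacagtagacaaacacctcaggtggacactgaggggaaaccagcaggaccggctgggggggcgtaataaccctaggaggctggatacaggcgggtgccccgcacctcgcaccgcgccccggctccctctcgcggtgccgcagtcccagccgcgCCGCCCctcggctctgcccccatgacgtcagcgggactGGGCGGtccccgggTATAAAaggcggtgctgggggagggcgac
Tubb3: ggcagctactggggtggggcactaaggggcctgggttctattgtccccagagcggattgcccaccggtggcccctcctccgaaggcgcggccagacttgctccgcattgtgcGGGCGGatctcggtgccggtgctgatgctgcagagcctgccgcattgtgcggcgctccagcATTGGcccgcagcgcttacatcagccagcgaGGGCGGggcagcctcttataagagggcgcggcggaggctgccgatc
Tubb4b: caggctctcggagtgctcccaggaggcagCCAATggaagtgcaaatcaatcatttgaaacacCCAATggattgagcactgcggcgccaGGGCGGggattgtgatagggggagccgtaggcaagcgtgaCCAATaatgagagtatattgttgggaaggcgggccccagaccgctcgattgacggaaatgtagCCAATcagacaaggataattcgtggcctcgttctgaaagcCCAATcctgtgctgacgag
Tuba1b: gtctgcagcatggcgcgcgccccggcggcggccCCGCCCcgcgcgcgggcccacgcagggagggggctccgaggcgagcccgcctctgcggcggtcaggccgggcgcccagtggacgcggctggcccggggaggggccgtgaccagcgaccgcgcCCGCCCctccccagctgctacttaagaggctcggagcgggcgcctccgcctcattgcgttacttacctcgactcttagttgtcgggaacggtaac
Tubb4b has 5 matches to CCAAT, at positions -221, -188, -122, -59 and -19 from the start site. A match to CCAAT occurs in 33.9% of 32851 mouse promoters of this length, and one to GGGCGG in 32.7%. Tubb2a has the TATAAA match at position -29, a motif found in 12.4% of promoters. Tuba1b and Tubb4b, which had a similar pattern over the libraries, share only the GGGCGG motif among those searched. CATTCC, read as GGAATG on the other strand and known as the core of the site bound by TEAD factors, occurs in 12.6% of promoters and was found only in Tubb5 (position -174) among these 7. A match is a run of letters and not a site shown to be used.

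The libraries held from 17089836 to 19944952 reads on listed genes. A gene without reads could still stand at up to 3 reads, or 0.151 to 0.181 TMM-normalized CPM (read counts scaled to the depth of each library), a limit that covers counting error only. The targeted gene followed the labels, since Cav1 ranged from 949.8 to 1157 CPM over WT libraries and did not exceed 0.411 CPM in any Cav1KO library. Of the fibroblast markers 9 of 12 were listed, led by Vim or Col1a2, with a summed level that was lower on stiff than on soft gels. None of the 8 epithelial and 6 endothelial markers was listed. Of the macrophage and muscle markers 1 each was listed, Cd68 at up to 4.55 CPM and Tnnt2 at up to 3.82 CPM. RNA of bulk samples was measured, so fewer cells of a kind and less RNA per cell cannot be told apart.

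The members outside these 2 clusters are at separate loci, Tubb3 at chr8:123411424-123422015 (plus strand), Tubb4b at chr2:25222160-25224702 (minus), Tubb5 at chr17:35833921-35838306 (minus), Tubb6 at chr18:67390717-67402749 (plus) and Tubg1 at chr11:101119938-101126419 (plus). Per kilobase of transcript, Tuba1b and Tubb5 were the most abundant members in every group. On stiff gels Tuba1b reached 2214 ± 171 CPM per kb (SD, n = 2) for WT and 2917 ± 237 for Cav1KO, and on soft gels 1497 ± 104 for WT and 1470 ± 3.80 for Cav1KO. Tubb5 stood at 1960 ± 84.2, 2093 ± 43.8, 2131 ± 6.82 and 2102 ± 37.7 CPM per kb in the same order. By the median length of the annotated coding transcripts Tuba1b therefore led on the stiff substrate and Tubb5 on the soft one. Tubb5 has 2 annotated coding transcripts, and by the longer one it was at 1223 to 1375 CPM per kb over the 8 libraries, below Tuba1b in all 4 groups.
Tuba1a followed with group means from 859.1 to 1054 CPM per kb, then Tuba1c with 274.9 to 417.3 and Tubb4b with 208.2 to 352.6. Below them the order differed between genotypes. In WT cells Tubb2b (68.3 and 70.0 CPM per kb on stiff and soft) ranked above Tubg1 and Tubb3, and Tubb3 was the lowest member at 7.83 and 5.70 CPM per kb. In Cav1KO cells Tubb2b was the lowest and Tubb3 (27.0 and 21.1 CPM per kb) came next. Within each group, no member's libraries overlapped those of the next member in the order.

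**Figure D1:**
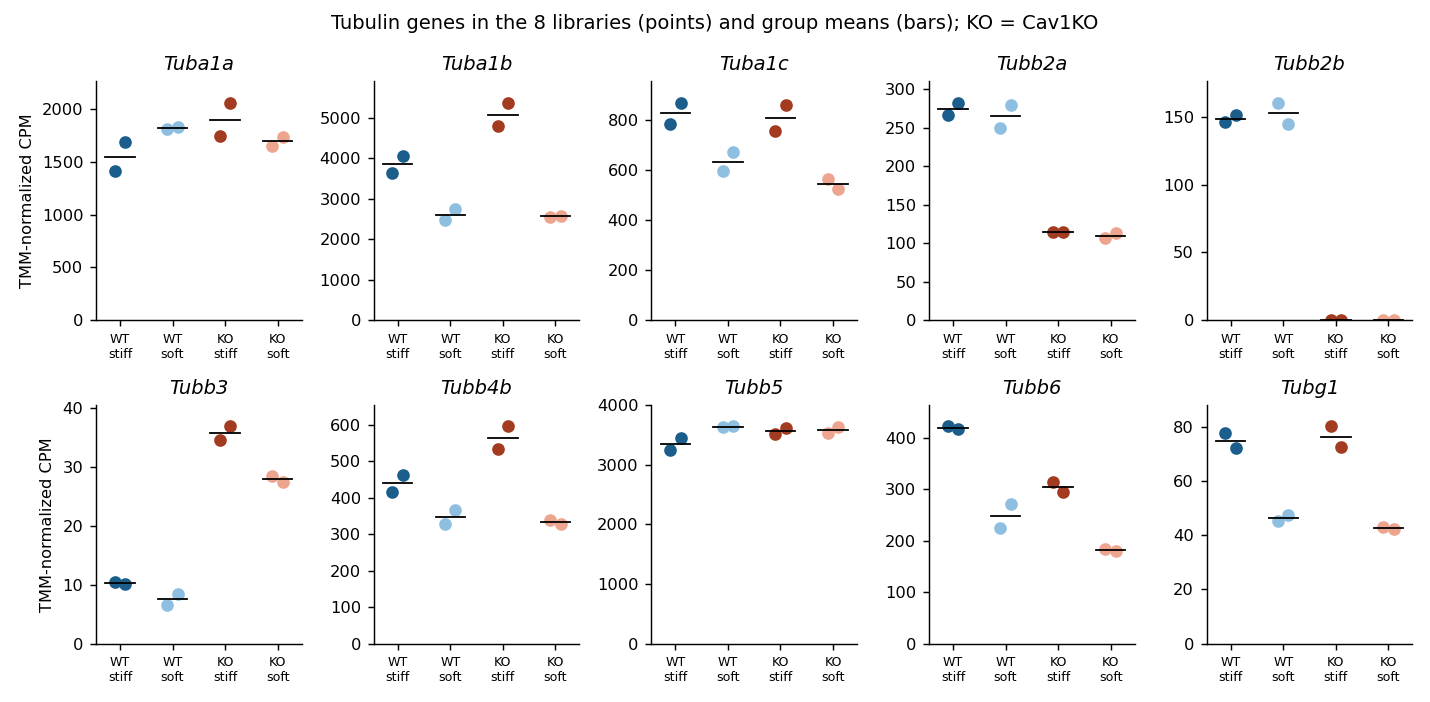
TMM-normalized CPM (vertical axes, each starting at 0) of the 10 tubulin genes in the 8 libraries (points) with group means (bars), for WT and Cav1KO (KO) cells on stiff and soft gels. Tubb2b is near 150 CPM in WT libraries and at 0 to 0.157 CPM in Cav1KO libraries, and the vertical scales differ between panels.

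The first comparison asked which tubulin genes respond to substrate stiffness. In WT cells 6 of the 10 members were higher on the stiff substrate and 0 were lower, against 22.1% higher and 26.3% lower (48.4% in either direction) among all 12494 genes tested (limma, Benjamini-Hochberg adjusted p below 0.05). In Cav1KO cells the same 6 genes were higher and 0 were lower among the 9 members with a measurable fold, against 27.9% and 28.2% of all genes (56.1% in either direction). These were Tuba1b, Tuba1c, Tubb3, Tubb4b, Tubb6 and Tubg1. The median log2 fold change of the members was 0.36 in WT cells and 0.57 in Cav1KO cells, against -0.02 over all genes in both. The libraries of the stiff and soft groups did not overlap for 8 members in each genotype, as for 75.3% and 78.5% of all genes tested, so separation of the libraries alone says little about them.

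Among the alpha-tubulin genes Tuba1b changed most. WT cells gave 3649 and 4070 CPM on stiff gels but 2481 and 2738 CPM on soft gels. Cav1KO cells gave 4793 and 5377 CPM on stiff gels but 2558 and 2567 CPM on soft gels. Every stiff library was above every soft library of either genotype. On the log2 scale WT cells differed by 0.56 (SE 0.11, limma adjusted p = 0.00277) and Cav1KO cells by 0.99 (SE 0.11, adjusted p = 0.000114). Both calls held under all 19 alternatives. Recomputed TMM repeated the main fit, and leaving out libraries of the other genotype left the fold unchanged.
On stiff gels Tuba1c had 785 and 869 CPM for WT and 757 and 861 CPM for Cav1KO, and on soft gels 596 and 672 CPM for WT and 565 and 524 CPM for Cav1KO. Its stiff libraries also lay above all soft libraries. The log2 fold changes were 0.38 (limma adjusted p = 0.0123) for WT and 0.57 (adjusted p = 0.00141) for Cav1KO. The WT call was lost without WT stiff replicate 2 (adjusted p = 0.0734) or without WT soft replicate 1 (adjusted p = 0.0953).
Tuba1a did not share this rise. Its stiff libraries held 1411 and 1687 CPM for WT and 1742 and 2060 CPM for Cav1KO, and its soft libraries 1814 and 1827 CPM for WT and 1655 and 1733 CPM for Cav1KO. The difference was -0.24 (SE 0.11, limma adjusted p = 0.115) for WT and 0.16 (adjusted p = 0.257) for Cav1KO on the log2 scale. Without WT stiff replicate 2 the WT value was -0.37 and passed the threshold (adjusted p = 0.0476), and under quantile normalization the Cav1KO value turned to -0.13. Since most windows of the 3 genes are shared, their sum was taken as well, and for WT it was 6236 ± 552 CPM (SD, n = 2) on stiff and 5064 ± 243 CPM on soft gels. For Cav1KO it was 7795 ± 711 CPM on stiff and 4801 ± 33.3 CPM on soft gels, so the stiff sum was 1.23-fold and 1.62-fold that on soft gels. A pseudogene listed at a mean of 83.9 CPM, Gm14150, holds 44.8% of the Tuba1b windows.

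Among the beta-tubulin genes Tubb6, a widely expressed isotype, rose most in WT cells. The WT libraries held 422 and 418 CPM on stiff gels but 224 and 270.5 CPM on soft gels. The Cav1KO libraries held 315 and 295 CPM on stiff gels but 183 and 179.9 CPM on soft gels. Within each genotype the stiff libraries were well above the soft ones. The log2 fold changes were 0.77 (SE 0.09, limma adjusted p = 0.000303) for WT and 0.74 (SE 0.09, adjusted p = 0.000242) for Cav1KO.
On stiff gels Tubb4b, another widely expressed isotype, had 415 and 462 CPM for WT and 532 and 595 CPM for Cav1KO, and on soft gels 327 and 367 CPM for WT and 338 and 328 CPM for Cav1KO. Every stiff library again exceeded every soft one. It rose by 0.34 (limma adjusted p = 0.0152) for WT and by 0.76 (adjusted p = 0.000207) for Cav1KO. The WT call was lost without WT stiff replicate 2 (adjusted p = 0.0920), without WT soft replicate 1 (adjusted p = 0.112) and under quantile normalization (adjusted p = 0.0539).
Tubb3 was low, at 10.5 and 10.1 CPM for WT and 34.6 and 36.8 CPM for Cav1KO on stiff gels, and at 6.59 and 8.49 CPM for WT and 28.4 and 27.4 CPM for Cav1KO on soft gels. The stiff libraries were above the soft ones within each genotype. The log2 fold changes were 0.42 (limma adjusted p = 0.0253) and 0.34 (adjusted p = 0.0465). Both calls were fragile, since the WT call was lost in 4 and the Cav1KO call in 9 of 19 alternatives, with adjusted p up to 0.156 and 0.182.
Tubb5, the most abundant beta-tubulin gene, was nearly level. WT cells held 3241 and 3444 CPM on stiff and 3626 and 3643 CPM on soft gels, and Cav1KO cells 3517 and 3622 CPM on stiff and 3539 and 3630 CPM on soft gels. The difference was -0.12 (SE 0.09, limma adjusted p = 0.285) for WT and -0.01 (SE 0.09, adjusted p = 0.964) for Cav1KO on the log2 scale. In Cav1KO cells it turned to 0.08 under median centring and was -0.28 under quantile normalization (adjusted p = 0.0115).
Tubb2a and Tubb2b gave no stiffness call. Tubb2a stood at 267 and 283 CPM for WT and 114.1 and 114.6 CPM for Cav1KO on stiff gels, and at 249.9 and 280.2 CPM for WT and 106.5 and 112.7 CPM for Cav1KO on soft gels. Its log2 fold changes were 0.05 (adjusted p = 0.599) and 0.06 (adjusted p = 0.537), the first of which turned to -0.01 and the second to -0.09 under quantile normalization. Tubb2b had 146 and 152 CPM on stiff gels in WT cells, then 160.7 and 144.8 CPM on soft gels, a log2 fold change of -0.03 (adjusted p = 0.824) that was 0.0080 under median centring. It had 3 reads or fewer in each Cav1KO library, so no fold with stiffness is given there.

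On stiff gels Tubg1, the gamma-tubulin of the ring complex, had 77.7 and 72.0 CPM for WT and 80.03 and 72.5 CPM for Cav1KO, and on soft gels 45.4 and 47.4 CPM for WT and 43.03 and 42.2 CPM for Cav1KO. The 4 stiff libraries stood apart from the 4 soft ones, with little difference between genotypes. It rose by 0.68 (SE 0.08, limma adjusted p = 0.000334) for WT and by 0.82 (SE 0.08, adjusted p = 8.56e-05) for Cav1KO. The calls of Tubb6 and Tubg1 in both genotypes, and those of Tuba1c and Tubb4b in Cav1KO cells, held under all 19 alternatives.

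**Figure D2:**
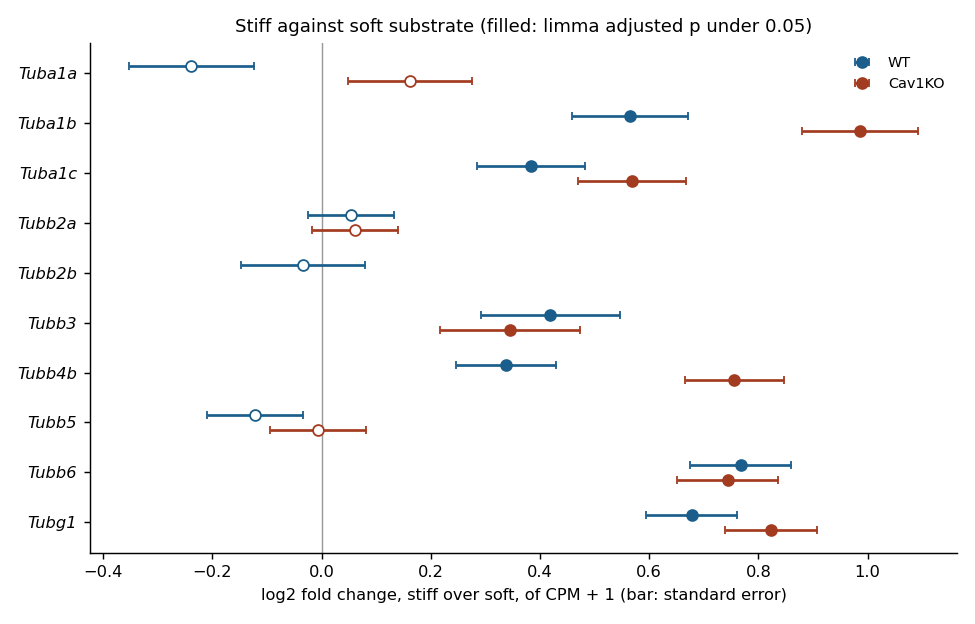
Log2 fold change of CPM + 1 between stiff and soft substrate (horizontal axis, bars are standard errors) for each tubulin gene in WT and Cav1KO cells, filled where limma's adjusted p was below 0.05. Tuba1b, Tuba1c, Tubb3, Tubb4b, Tubb6 and Tubg1 are filled in both genotypes, and Tubb2b has no Cav1KO value.

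Fibroblast markers moved the other way. Their summed level on stiff gels was 9255 to 9428 CPM for WT and 4500 to 5610 CPM for Cav1KO, and on soft gels 12050 to 12200 CPM for WT and 13530 to 13570 CPM for Cav1KO. Of the 9 listed, 7 were lower and 0 higher with stiffness for WT (median -0.93) and all 9 were lower for Cav1KO (median -1.52), and their part in the rise of the tubulin genes was not tested. Proliferation markers moved with stiffness as the tubulin genes did. Their summed level over 24 genes on stiff gels was 5634 to 5646 CPM for WT and 5886 to 5911 CPM for Cav1KO, and on soft gels 3227 to 3916 CPM for WT and 3233 to 3249 CPM for Cav1KO. Of these genes 20 were higher and 0 lower with stiffness in WT cells, and 18 were higher and 3 lower in Cav1KO cells, and the part of proliferation in the rise of the tubulin genes was not tested. Transcript length moved with stiffness in Cav1KO cells. Among 2644 genes with a longest coding transcript of 1598 to 2649 nt, the range of the members, 35.2% were higher with stiffness in Cav1KO cells and 24.1% lower, and in WT cells 23.8% were higher and 30.4% lower. Of 1630 genes over 6000 nt, 12.4% were higher and 45.0% lower in Cav1KO cells, and the part of length in the members' values was not tested.

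The second comparison asked whether the stiffness effect differed between genotypes. The interaction of stiffness and genotype passed the threshold for 0 of the 9 members with a fold, against 10.5% of all genes (4.47% larger and 6.0% smaller in WT cells). At an unadjusted p below 0.05 there were 3 members, all with the smaller value in WT cells. These were Tubb4b (difference -0.42, SE 0.13, limma adjusted p = 0.0674), Tuba1b (-0.42, SE 0.15, adjusted p = 0.0918) and Tuba1a (-0.40, SE 0.16, adjusted p = 0.119). edgeR's quasi-likelihood test called 0 members and DESeq2 called 2, Tubb4b (adjusted p = 0.0493) and Tuba1b (adjusted p = 0.0358). Over all genes DESeq2 called 781 larger and 719 smaller of 10556 tested. Without Cav1KO stiff replicate 1, which leaves 1 library in that group, the differences were -0.499 for Tubb4b, -0.505 for Tuba1b and -0.521 for Tuba1a. Under quantile normalization the difference for Tuba1b turned to 0.0092. For Tubb6 (0.02), Tubb3 (0.07), Tubb2a (-0.01), Tubb5 (-0.12), Tubg1 (-0.15) and Tuba1c (-0.18) the adjusted p ranged from 0.371 to 0.968, and the values for Tubb6, Tubb3, Tubb2a and Tubb5 turned direction under other scalings, pseudocounts or left-out libraries.

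The third comparison asked which tubulin genes differ between Cav1KO and WT cells on the same substrate. On stiff gels 3 of 10 members were higher in Cav1KO cells (Tuba1b, Tubb3 and Tubb4b) and 3 were lower (Tubb2a, Tubb2b and Tubb6), against 25.0% and 26.6% of all genes (51.7% in either direction). On soft gels 1 member was higher (Tubb3) and 3 were lower (Tubb2a, Tubb2b and Tubb6), against 24.1% and 29.9% (54.0% in either direction). The shares of members called were thus near those of all genes. The genotype and stiffness contrasts use the same libraries, so they are not independent of each other.

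Tubb2b was near the floor in Cav1KO cells. Against 2911, 2661, 2659 and 2695 reads in the 4 WT libraries, it had 0 and 0 reads in the Cav1KO stiff libraries and 3 and 3 reads in the Cav1KO soft libraries. Summed over a group, it was at least 1747-fold lower in Cav1KO than in WT cells on stiff gels, with the floor set at 3 reads over the group. On soft gels it was 978.9-fold lower, with a 95% counting interval of 449.5 to 2669. The fitted log2 values of -7.23 and -7.05 (limma adjusted p = 2.28e-09 and 2.51e-09) depend on the pseudocount. Of 1686 genes with at least 100 CPM in every WT library, Tubb2b was the only 1 with 3 reads or fewer in every Cav1KO library, and 0 of 1571 genes showed the reverse, by limits chosen after the values were seen that leave out Cav1 itself (1 to 8 reads in the Cav1KO libraries). By fitted fold Tubb2b ranked 8 from the lowest on stiff gels and 6 on soft gels among 12494 genes.
Tubb2a, its neighbour and nearest relative, was lower but well expressed in Cav1KO cells. Its 4 WT libraries ranged from 249.9 to 282.7 CPM and its 4 Cav1KO libraries from 106.5 to 114.6 CPM. The log2 fold change was -1.26 on both substrates (SE 0.08, limma adjusted p = 3.90e-06 on stiff and 3.51e-06 on soft gels). Because 43.3% of the Tubb2a windows occur in Tubb2b, reads of either gene may have been divided between them. For WT the sum of both was 423.7 ± 15.1 CPM (SD, n = 2) on stiff and 417.8 ± 10.2 CPM on soft gels, and for Cav1KO it was 114.3 ± 0.386 CPM and 109.7 ± 4.37 CPM. In Cav1KO cells it stood at 0.270 of the WT level on stiff gels and at 0.263 on soft gels.

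Tubb3 was the member that rose most in Cav1KO cells. All its Cav1KO libraries (27.4 to 36.8 CPM) were above all WT libraries (6.59 to 10.5 CPM). The log2 fold change was 1.69 on stiff gels (SE 0.13, limma adjusted p = 1.23e-05) and 1.77 on soft gels (SE 0.13, adjusted p = 9.31e-06), higher than for 97.4% of genes on stiff and 97.3% on soft gels. Of 15 neuron markers only 4 were listed. Their summed level, led by Ncam1, was 34.6 to 72.9 CPM in WT libraries and 16.8 to 31.1 CPM in Cav1KO libraries. Of these 4 genes, 1 (Map2) was higher in Cav1KO cells on each substrate, by 1.14 and 1.84, and 3 were lower on stiff and 2 on soft gels. Their part in the level of Tubb3 was not tested.
The genes around Tubb3 were higher too. Its nearest listed neighbours are Tcf25, 7588 bases away on one side, and Def8, 1511 bases away on the other. Tcf25 was higher in Cav1KO cells by 1.26 on stiff and 1.19 on soft gels (log2, limma adjusted p = 1.05e-06 and 1.33e-06). Def8 was higher by 1.62 and 1.36 (adjusted p = 5.64e-07 and 1.52e-06). Within 500 kb of Tubb3, 17 of 20 other genes tested were higher in Cav1KO cells and 0 lower on stiff gels, and 18 of 20 were higher and 0 lower on soft gels, with median log2 fold changes of 1.11 and 1.29 against -0.03 over all genes. The pattern covered the end of chromosome 8. Of 83 other genes with start sites beyond 120 Mb, 73 were higher and 1 lower on stiff gels (median 1.08), and 75 were higher and 2 lower on soft gels (median 1.12). Between 110 and 120 Mb the medians of 54 genes were 0.05 and 0.12. Between 80 and 90 Mb genes went the other way, with 10 of 84 higher and 61 lower on stiff gels (median -0.58). On soft gels 8 of these were higher and 59 lower (median -0.70). Among genes with a mean of at least 5 CPM, Spire2 had the levels most like those of Tubb3 over the 8 libraries. It also lies beyond 120 Mb, with its start site at -78.7 kb from that of Tubb3. This window and these bins were chosen after the values were seen, and the part of position in the level of Tubb3 was not tested.
Around the Tubb2 pair neighbours moved in both directions. Of 8 other genes tested within 500 kb, 2 were higher and 2 lower on stiff gels and 1 was higher and 2 lower on soft gels, with medians of -0.05 and -0.06. Psmg4, 32497 bases beyond Tubb2b, had log2 fold changes of 0.63 (limma adjusted p = 0.00794) and 0.09 (adjusted p = 0.652). Bphl, 199 bases beyond the end of Tubb2a, was higher in Cav1KO cells by 1.23 (adjusted p = 0.000337) and 0.62 (adjusted p = 0.0117). The lower genes were Slc22a23, by -2.19 and -2.31 (adjusted p = 0.000301 and 0.000197, mean 4.77 CPM), and Serpinb6a, by -0.79 and -1.07 (adjusted p = 9.58e-05 and 1.54e-05).

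**Figure D3:**
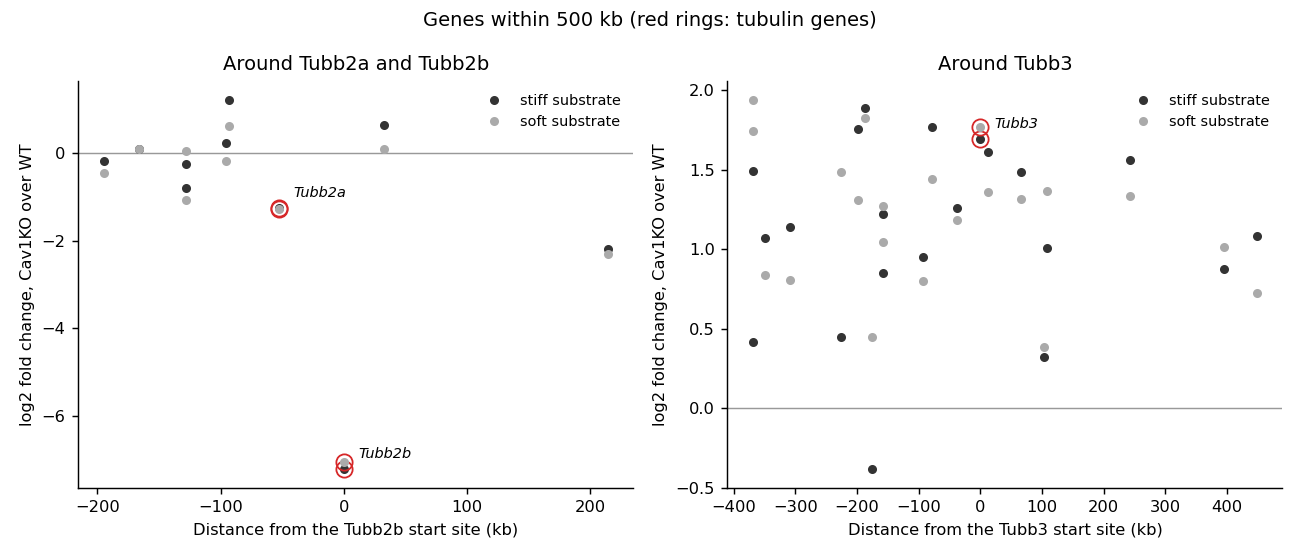
Log2 fold change of CPM + 1, Cav1KO over WT (vertical axis), of tested genes within 500 kb against the distance of their start sites from that of Tubb2b (left) or Tubb3 (right) in kb, on stiff (black) and soft (grey) gels, with tubulin genes ringed in red. Around Tubb3 the median of the other genes is 1.11 on stiff and 1.29 on soft gels, and Tubb2b lies far below its neighbours.

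Tubb6 was lower in Cav1KO cells on both substrates, by -0.46 on stiff gels (SE 0.09, limma adjusted p = 0.00327) and -0.44 on soft gels (adjusted p = 0.00403). Its libraries did not overlap between genotypes on either substrate, as for 72.7% of all genes tested on stiff and 81.1% on soft gels. Of 10 other genes tested within 500 kb of Tubb6, 2 were higher and 4 lower on stiff gels (median -0.12). On soft gels 0 were higher and 4 lower (median -0.18). The part of position in the Tubb6 value was not tested. Tuba1b was higher in Cav1KO cells on stiff gels by 0.40 (SE 0.11, adjusted p = 0.0132) and Tubb4b by 0.36 (SE 0.09, adjusted p = 0.0106). On soft gels their values were -0.02 (adjusted p = 0.861) and -0.06 (adjusted p = 0.612). Both calls were lost without WT stiff replicate 1 (adjusted p = 0.0839 and 0.0748) or without Cav1KO stiff replicate 2 (adjusted p = 0.0711 and 0.0578), which leaves Tubb3 as the 1 member called higher. Under quantile normalization Tuba1b and Tuba1a were called higher on soft gels, by 0.31 (adjusted p = 0.00231) and 0.22 (adjusted p = 0.0175).
On chromosome 15, which holds the alpha-tubulin members, 48.6% of 483 other genes were higher and 12.4% lower in Cav1KO cells on stiff gels (median 0.28). On soft gels 47.6% were higher and 14.7% lower (median 0.28). Of 26 other genes tested within 500 kb of the alpha-tubulin members, 9 were higher and 3 lower on stiff gels (median 0.05). On soft gels 8 of them were higher and 5 lower (median 0.12). The part of position in the Tuba1b value was not tested. Tuba1a had a log2 difference of 0.30 on stiff gels (adjusted p = 0.0567), which passed the threshold in 7 of 19 alternatives, and of -0.10 on soft gels. Tuba1c (-0.03 and -0.22), Tubb5 (0.10 and -0.02) and Tubg1 (0.03 and -0.12) were not called, with adjusted p from 0.0947 to 0.863. Directions of these small values turned under some settings. Tubb2a, Tubb2b, Tubb3 and Tubb6 kept their calls under all 19 alternatives on both substrates.

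**Figure D4:**
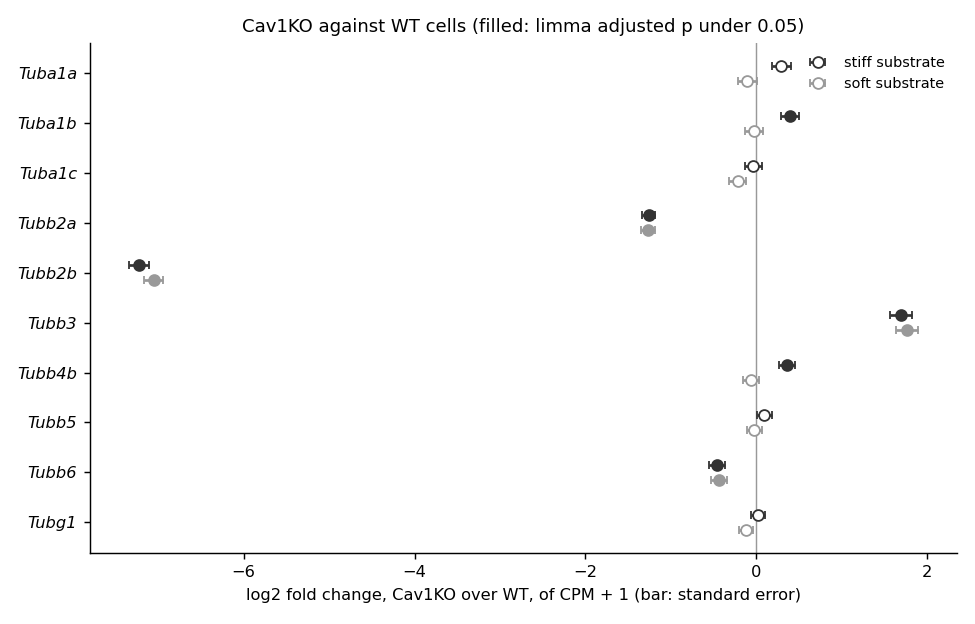
Log2 fold change of CPM + 1, Cav1KO over WT cells (horizontal axis, bars are standard errors), for each tubulin gene on stiff and soft gels, filled where limma's adjusted p was below 0.05. Tubb2b (-7.23 and -7.05, values that depend on the pseudocount) and Tubb3 (1.69 and 1.77) are the extremes.

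These changes altered the isotype make-up of tubulin mRNA, taken as shares of CPM per kb within alpha- or beta-tubulin. With 2 libraries a group no exact permutation test can reach the threshold, so shares are given as values. In WT cells Tuba1b made up 63.3 and 62.3% of alpha-tubulin for stiff and 51.4 and 53.1% for soft gels. In Cav1KO cells it made up 67.0 and 66.1% on stiff and 54.9 and 54.5% on soft gels. Tuba1a took up the difference, at 23.6 to 25.0% in the 4 stiff libraries and 34.2 to 36.3% in the 4 soft ones. Alpha-tubulin here includes Tuba4a beside the 3 members. Since 81.2% of the Tuba1b and 73.7% of the Tuba1a windows occur in other genes, the split between them is uncertain. Of beta-tubulin, Tubb5 on stiff gels made up 71.95 and 72.1% for WT and 77.2 and 76.9% for Cav1KO, and on soft gels 78.97 and 77.2% for WT and 83.7 and 84.2% for Cav1KO. The beta-tubulin mRNA from other genes thus made up 27.9 to 28.05% for WT and 22.8 to 23.1% for Cav1KO on stiff gels, and 21.03 to 22.8% for WT and 15.8 to 16.3% for Cav1KO on soft gels. Of all beta-tubulin, Tubb6 ranged from 4.05% in a Cav1KO soft library to 9.09% in a WT stiff library. Tubb4b ranged from 7.61% in a WT soft library to 13.5% in a Cav1KO stiff library. Tubb2a was at 5.77 to 6.29% in WT and 2.58 to 2.77% in Cav1KO libraries. Tubb3 remained a minor isotype, at 0.185 to 0.302% in WT and 0.819 to 1.01% in Cav1KO libraries.
The 6 beta-tubulin members together had 4635 ± 188 CPM (SD, n = 2) on stiff and 4654 ± 83.9 CPM on soft gels for WT, and 4588 ± 107 CPM and 4237 ± 58.5 CPM for Cav1KO. Their stiff sum was 0.996 of the soft sum in WT cells and 1.08 of it in Cav1KO cells, beside 1.23 and 1.62 for the alpha-tubulin members. As shares of CPM instead of CPM per kb, Tubb5 had means for WT and Cav1KO of 72.1% and 77.8% on stiff gels and 78.1% and 84.6% on soft gels, and by the longest coding transcript 62.5% and 68.6% on stiff gels and 69.7% and 77.4% on soft gels. The order of the groups was the same on all 3 scales.

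**Figure D5:**
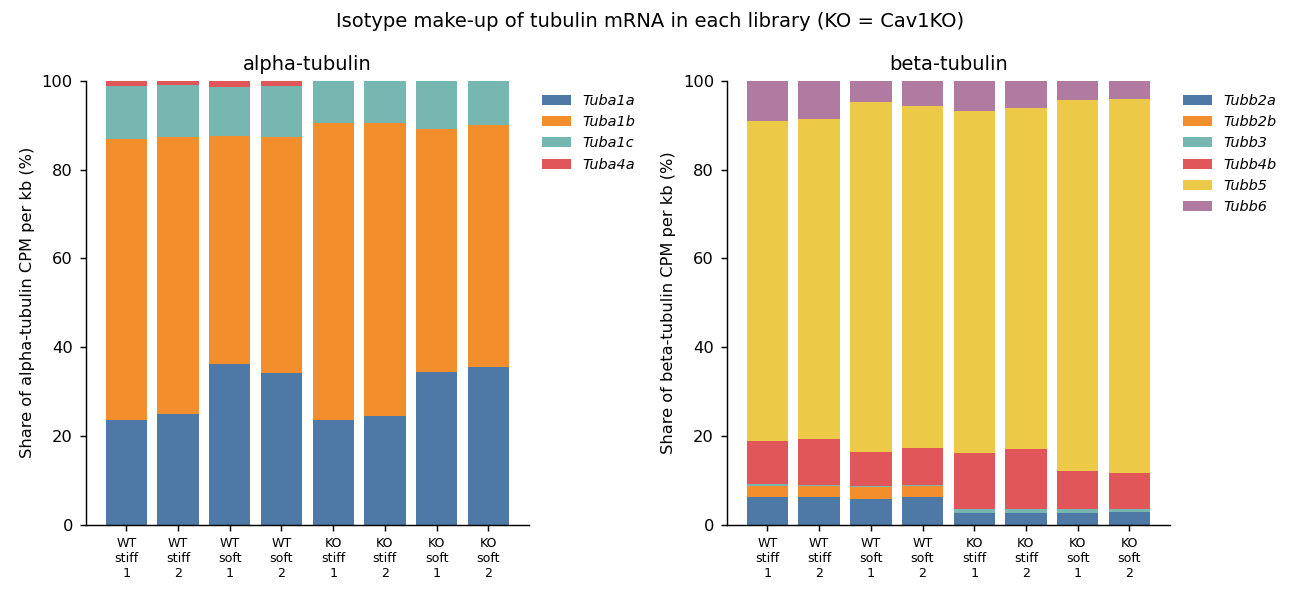
Shares (%) of alpha-tubulin (left) and beta-tubulin (right) CPM per kb taken by each gene in each of the 8 libraries (stacked bars from 0 to 100). Tuba1b takes 62.3 to 67.0% on stiff and 51.4 to 54.9% on soft gels, and Tubb2b is at 2.40 to 2.73% in WT and at 0.0029% or less in Cav1KO libraries.

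Of the 10 other tubulin genes looked for, 4 were listed. Tuba4a, an alpha-tubulin isotype, had 29.3 and 31.6 CPM on stiff and 33.8 and 30.6 CPM on soft gels for WT, but 2.53 and 2.63 CPM on stiff and 1.202 and 1.08 CPM on soft gels for Cav1KO. It was lower in Cav1KO cells by -3.13 on stiff (limma adjusted p = 2.73e-07) and -3.95 on soft gels (adjusted p = 7.02e-08). It rose with stiffness in Cav1KO cells (0.74, adjusted p = 0.00112) but not in WT cells (-0.08, adjusted p = 0.635), and the difference passed the threshold (-0.82, adjusted p = 0.0310). It shares 36.8% of its windows with the overlapping gene Stk16, so its value is uncertain. Tubg2, the close relative of Tubg1, had 57 reads in the WT stiff libraries together and 0 in the Cav1KO stiff libraries, at least 17.9-fold lower. On soft gels it had 71 against 3 reads, 26.0-fold lower with a 95% counting interval of 8.53 to 128.9. Tubd1 and Tube1, the delta- and epsilon-tubulins of centrioles, were at 6.65 to 12.1 CPM and 3.71 to 6.33 CPM. Tubd1 was lower in Cav1KO cells on stiff (-0.38, adjusted p = 0.0468) and soft gels (-0.38, adjusted p = 0.0434), and Tube1 on soft gels (-0.46, adjusted p = 0.0153).

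Genes that handle tubulin were then counted by list, beside which the shares of all genes are 22.1% higher and 26.3% lower with stiffness for WT, 27.9% and 28.2% for Cav1KO, and 25.0% and 26.6% between genotypes on stiff and 24.1% and 29.9% on soft gels. Of 23 genes for tubulin folding (the CCT chaperonin, prefoldin and the tubulin cofactors), 14 were higher and 4 lower with stiffness in WT cells, and 15 were higher and 3 lower in Cav1KO cells, with median log2 fold changes of 0.30 and 0.61. Cct6a, a chaperonin subunit, was higher by 0.85 and 1.14 (limma adjusted p = 7.71e-05 and 1.46e-05). The tubulin cofactor gene Tbcc fell by 0.56 and 0.30 (adjusted p = 0.00148 and 0.0245). Between genotypes, 11 folding genes were higher and 4 lower in Cav1KO cells on stiff gels, and 6 were higher and 8 lower on soft gels. Tbca, which binds beta-tubulin during folding, was higher in Cav1KO cells by 1.07 and 0.95 (adjusted p = 2.84e-05 and 5.56e-05), and the chaperonin subunit Cct3 was lower by -0.67 and -0.90 (adjusted p = 7.28e-05 and 1.22e-05).
Of 11 genes for tubulin mRNA autoregulation, which include subunits of the CCR4-NOT deadenylase, 3 were higher with stiffness and 0 lower in WT cells, and 3 were higher and 1 lower in Cav1KO cells, or 3 of 11 higher in each against 22.1% and 27.9% of all genes. Cnot1, the scaffold of CCR4-NOT, was higher by 0.62 with stiffness for WT (adjusted p = 0.00998), and its Cav1KO stiff level was lower than in WT stiff by -0.90 (adjusted p = 0.00137). Between genotypes 1 was higher and 1 lower on each substrate.

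Partners of Tubg1 were counted next, with no test of the list. Of 20 genes of the gamma-tubulin ring complex and of microtubule nucleation, 8 were higher and 0 lower with stiffness in WT cells, and 11 were higher and 2 lower in Cav1KO cells, with medians of 0.26 and 0.32, against 22.1% and 27.9% of all genes higher. Haus6, a subunit of the augmin complex that starts branches on microtubules, was higher by 0.76 for WT (limma adjusted p = 0.000921), and Haus7 of the same complex rose by 1.01 in Cav1KO cells (adjusted p = 5.61e-05). On each substrate 3 of these genes were higher and 8 lower in Cav1KO than in WT cells. Haus6 was lower by -0.997 and -0.96 (adjusted p = 0.000152 and 0.000171), and Mzt1, a small ring-complex protein, by -1.04 on soft gels (adjusted p = 0.000168).

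Of 21 microtubule-binding proteins tested, 4 were higher and 2 lower with stiffness in WT cells, whereas 3 were higher and 10 lower in Cav1KO cells, with medians of 0.36 and -0.61, against 27.9% higher and 28.2% lower among all genes in Cav1KO cells. Map1b, a microtubule-associated protein of growing neurites, was higher by 1.19 for WT (limma adjusted p = 0.0122), and the end-binding protein gene Mapre1 by 0.63 for Cav1KO (adjusted p = 9.97e-05). Clip1, a plus-end protein, and Map1a, a neuronal microtubule-associated protein, fell by 1.11 and 1.07 for Cav1KO (adjusted p = 0.0214 and 0.0127). On stiff gels 1 was higher and 12 lower in Cav1KO than in WT cells, and on soft gels 6 were higher and 3 lower. Map2, a dendritic microtubule protein, was higher by 1.14 and 1.84 (adjusted p = 0.00489 and 0.000334). On stiff gels Map1b was lower by -2.93 (adjusted p = 8.59e-05) and Ckap5, a microtubule polymerase, by -1.19 (adjusted p = 0.0171), and on soft gels Clasp2, a plus-end protein, by -1.02 (adjusted p = 0.000109). Of the 21 listed genes, 13 have a coding transcript over 6000 nt, a class in which 45.0% of genes were lower with stiffness in Cav1KO cells. Between genotypes 15.1% of this class were higher and 34.05% lower in Cav1KO cells on stiff gels, and 35.8% higher and 19.5% lower on soft gels. The part of length in the counts of microtubule-binding genes was not tested.
Of 12 destabilizing and severing proteins, 4 were higher and 1 lower with stiffness in WT cells, while Cav1KO cells had 2 higher and 1 lower. Fignl1, of the fidgetin family of severing-type ATPases, rose by 0.53 and 0.99 (adjusted p = 0.00271 and 7.82e-05). Between genotypes 2 were higher and 6 lower in Cav1KO cells on stiff gels, and 1 and 3 on soft gels.
Of 15 tubulin modification enzymes, 3 were higher and 2 lower with stiffness in WT cells, while Cav1KO cells had 3 higher and 3 lower. Ttll12, of the tubulin tyrosine ligase-like family, rose by 0.61 and 0.76 (adjusted p = 0.000204 and 4.40e-05), and Sirt2, a tubulin deacetylase, fell by 0.63 and 0.71 (adjusted p = 0.000292 and 9.85e-05). Between genotypes, 7 were higher and 1 lower in Cav1KO cells on stiff gels and 8 and 1 on soft gels, with medians of 0.30 and 0.33. Vash2, a tubulin detyrosinating enzyme, was higher by 0.74 on soft gels (adjusted p = 0.000549).

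The pattern of each member over the 8 libraries was compared with the other members and with other genes of a mean of at least 5 CPM. The measure was the root mean square difference of centred log2(CPM + 1). The measure is not scaled, so genes that vary little differ little whatever their pattern. Among the members it was smallest for Tuba1a and Tubb5, at 0.102. Their own root mean squares were 0.144 and 0.0537, so this does not show a shared pattern. Tuba1b and Tubb4b followed with 0.116, beside own values of 0.418 and 0.310. Tubg1 was nearest to Tuba1b at 0.171. Outside the family the most similar genes were Thyn1 for Tuba1b (0.0390), Cmc2 for Tubb4b (0.0503), Ddx49 for Tuba1c (0.0379) and Tmem222 for Tuba1a (0.0336). They were Xpo1, the nuclear export receptor, for Tubb6 (0.0543), Mcmbp, which binds the replicative MCM helicase, for Tubg1 (0.0514), Paqr4 for Tubb5 (0.0302) and Ugcg for Tubb2a (0.0656). For Tubb2b the nearest was Slc16a3, a lactate transporter, at 0.131, and for Tubb3 Spire2, an actin nucleator, at 0.170. For the other members the nearest gene differed by 0.0656 or less.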

How the data were processed

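RNA-seq libraries of 8 samples (4 groups of 2, from the labelled genotype and gel) were analysed. The authors deposited TMM-normalized CPM per gene and library, a signal equal to the read count divided by the library's size factor. The processing notes name CASAVA 1.8.2, cutadapt, RSEM 1.2.3 and GRCm38. The settings of RSEM for reads matching several genes, and whether counting used strand, are not given in the sources used here. Recovered reads of genes that share windows may therefore be rounded estimates and not counts of reads unique to a gene. All values (100%) were whole multiples of the value of 1 read (tolerance 0.1 reads), so reads were recovered. Identifiers of 12451 of 12528 genes matched GENCODE M21 (GRCm38). All columns belonged to the 8 samples.

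A gene entered the test if 2 or more libraries reached 1 CPM, which kept 12494 genes. The log2(CPM + 1) values were fitted by limma 3.58.1 (R 4.3.3), a scale that understates changes of low genes. One fit held all 4 groups with a mean-variance trend and 4 residual degrees of freedom. Adjustment (Benjamini-Hochberg, threshold 0.05) ran over all genes, and tests were two-sided. The fit was tested on simulated data. The alternatives were edgeR 4.0.16 and DESeq2 1.42.0 on recovered reads, other scalings, pseudocounts and filters, no trend, a replicate block and leaving out each library. TMM recomputed from the recovered reads returned the main values. Leaving out a library of a group outside a contrast cannot change the fold of that contrast in the limma fit. Levels per kb used the median coding transcript length. Folds against groups at 0 used a floor of 3 reads. Sequence windows, identity and motifs were computed with Biopython 1.88 from the annotation and from RefSeq promoters. Proteins were not analysed here.

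The members, gene lists and tests were chosen with earlier results of these data known. From each other list and contrast, the named genes were taken from the 2 largest rises and 2 largest falls past the threshold with a mean of at least 5 CPM and libraries that did not overlap (interaction: equal sign for replicates 1 and 2). The 2 genes most like each member also qualified, and the text names the first. Tubg2, the neighbours of members and the genes of chromosomes 8, 13, 15 and 18 were chosen after their values were seen.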

Additional observations from a re-analysis of the deposited data

Results flagged for a closer look

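For 7 genes of the tubulin-related lists the change with stiffness differed between genotypes by limma's interaction test (adjusted p below 0.05). They met the rule for named genes (a mean of at least 5 CPM, an equal sign for replicates 1 and 2, at most 2 genes per list and direction). Among all genes 4.47% were called larger and 6.0% smaller in WT cells. Calls, larger and smaller, were 0 and 1 of 4 other tubulin genes, 0 and 2 of 23 folding and 1 and 0 of 11 autoregulation genes. They were 1 and 1 of 20 ring-complex, 3 and 0 of 21 microtubule-binding, 0 and 1 of 12 destabilizing and 0 and 0 of 15 modification genes. Each difference is the log2 fold change with stiffness in WT minus that in Cav1KO cells. Tuba4a, the alpha-tubulin isotype, had a difference of -0.82, and the folding genes Pdcl3 and Pfdn4 had differences of -0.47 and -0.63. Haus1, of the augmin complex, had a difference of -0.70. Pcnt, the centrosome scaffold pericentrin, had a difference of 1.997, and the microtubule-binding genes Map1b and Macf1 had differences of 2.14 and 1.96. On stiff gels their Cav1KO libraries were spread widely, at 5.63 ± 2.69 CPM (SD, n = 2) for Pcnt, 1.98 ± 0.94 for Map1b and 8.20 ± 4.47 for Macf1. Of 1630 genes over 6000 nt, 14.2% were called larger and 2.5% smaller in WT cells. The part of length in these differences was not tested. No member passed the threshold in the interaction test. Groups of 2 libraries were too small to look for a library far from the others.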

How the results depend on the processing

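Of the log2 fold changes of the members under the alternatives, 843 kept their direction and their side of the threshold, 22 lost their call, 15 gained one and 32 turned direction. The cause of these changes was not tested. The 843 include recomputed TMM, which repeated the main fit. They also include libraries left out of groups outside a contrast, which cannot change its fold. Of 40 isotype shares, 28 moved by at least 1 SD of their replicates without division by length and 25 with the longest coding transcript. Both counts include Tubb2b in Cav1KO stiff cells, which stayed at 0%. Leaving out 1 of 2 libraries cannot move a share by 1 SD of its replicates, so those settings were not counted. Under quantile normalization, the values with stiffness became -0.013 for Tubb2a in WT cells and -0.13 for Tuba1a and -0.085 for Tubb2a in Cav1KO cells. The genotype difference in the stiffness effect became 0.0092 for Tuba1b, 0.072 for Tubb2a and 0.16 for Tubb5. The genotype values became -0.021 for Tubb5 on stiff gels, and 0.22 for Tuba1a, 0.31 for Tuba1b and 0.14 for Tubb5 on soft gels. With median centring they became 0.0080 for Tubb2b (stiffness, WT), 0.081 for Tubb5 (stiffness, Cav1KO), -0.020 for Tubb6 (difference) and 0.023 for Tuba1c (genotype, stiff). A pseudocount of 5 gave -0.011 for the Tubb3 difference, and DESeq2 gave 0.0034 for Tubb5 between genotypes on soft gels.

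Leaving out each library in turn, the values with stiffness ranged from -0.028 to 0.14 for Tubb2a and from -0.11 to 0.040 for Tubb2b in WT cells, and from -0.028 to 0.015 for Tubb5 in Cav1KO cells. The differences ranged from -0.089 to 0.075 for Tubb2a, from -0.087 to 0.24 for Tubb3 and from -0.11 to 0.16 for Tubb6. The genotype values ranged from -0.13 to 0.059 for Tuba1c and from -0.044 to 0.097 for Tubg1 on stiff gels, and from -0.095 to 0.046 for Tuba1b and from -0.14 to 0.023 for Tubb4b on soft gels. Members called higher with stiffness in WT cells ranged from 3 (without WT stiff replicate 2 or WT soft replicate 1) to 6, and those called lower from 0 to 1. Members with a smaller effect in WT cells ranged from 0 to 3, and those higher in Cav1KO cells on stiff gels from 1 to 4. Where a group was left with 1 library, its spread was assumed to be that of the other groups. Calls over all genes changed too, most in the interaction, so these counts of members have no fixed share beside them.

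Quantile normalization called 1 member lower with stiffness in Cav1KO cells (Tubb5), 1 with a smaller effect in WT cells (Tubb4b) and 3 higher in Cav1KO cells on soft gels. DESeq2 called 2 with a smaller effect in WT cells. Over all genes, limma called 559 larger and 750 smaller stiffness effects in WT cells. The counts were 361 and 541 with edgeR, 781 and 719 of 10556 genes with DESeq2, and 314 and 391 without the trend. They also changed widely with the library left out, so the share of all genes beside the members' interaction counts is itself uncertain. Deviations of libraries with the same replicate number correlated at 0.42 between WT stiff and Cav1KO stiff but at -0.37 to 0.14 between the other groups, so the numbers were not taken to pair the libraries. With the replicate block the Tubb3 rise in Cav1KO cells (0.34) was lost (adjusted p = 0.0533) and Tuba1a on stiff gels (0.30) was called higher in Cav1KO cells (adjusted p = 0.0303). Depth limits statements on Tubb2b and Tubg2 in Cav1KO cells, which were at 3 reads or fewer per library.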
